A study of Taeniopygia guttata with 169 samples.

Results

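The data here concern 100 genes whose bone marrow RNA differed between methylmercury and control zebra finches in opposite directions in the 2 cohorts of the study. They were chosen by a rule on the measured values, out of 17292 genes in the expression table. With methylmercury, 51 of them were higher in cohort 2 and lower in cohort 1, and the other 49 were lower in cohort 2 and higher in cohort 1. Because the opposite signs are how the genes were chosen, the sizes of these differences are given as a description. Counts of genes called for these differences are given below, but the choice shaped them, so nothing is read from them. Tests are given for contrasts on which the genes were not ranked: title code, variation of the methylmercury difference with age or sex, plate, RNA extraction batch and RNA quality. They use the libraries that chose the genes, and the rule also limited the spread of the control ages and the overall sex difference. The ranked differences were not adjusted for title code, plate, extraction batch or RNA quality and can contain differences between these. The counts called for those terms are therefore a description.

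Methylmercury is an organic form of mercury that builds up along food chains and reaches birds through their diet. It binds to the thiol and selenol groups of proteins, and its best known target is the nervous system. Bone marrow holds the stem cells and precursors of blood, together with maturing red cells, thrombocytes and white cells, so the RNA of bulk marrow is a mixture over many cell types and stages. The zebra finch, Taeniopygia guttata, is a small songbird that is bred in captivity.

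Birds of the methylmercury groups received 1.2 ppm methylmercury in food, and control birds did not. Bulk marrow was taken on day 6, 18, 35 or 90 of life from males and females in each of 2 numbered cohorts. The methylmercury group of cohort 2 held 48 libraries, 29 from males and 19 from females, and the control group of cohort 2 held 40, from 19 males and 21 females. The methylmercury group of cohort 1 held 35 libraries, 18 from males and 17 from females, and the control group of cohort 1 held 38, from 21 males and 17 females. By day 6, 18, 35 and 90 these were 8, 13, 13 and 14 libraries with methylmercury and 7, 12, 11 and 10 controls in cohort 2. In cohort 1 they were 7, 12, 8 and 8 libraries with methylmercury and 10, 9, 8 and 11 controls. The birds were bred from stock with varied past exposure, per the series' design text, but the labels do not give the history of each bird or what sets the cohorts apart. No label says how many birds a library holds, so the p-values below measure the spread between libraries. Where birds are counted below, the counts are of libraries.

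Across the 83 methylmercury and 78 control libraries, 4572638 to 14968673 reads were assigned to genes, with a median of 7637898. The median was 7408989 reads in methylmercury birds and 8027795 in controls of cohort 2, and 7933666 in methylmercury birds and 7446378 in controls of cohort 1. The RNA integrity number (RIN) averaged 8.7 ± 0.48 with methylmercury (SD, n = 37) and 8.56 ± 0.58 in controls (n = 34) of cohort 2. It averaged 8.48 ± 0.65 with methylmercury (n = 28) and 8.43 ± 0.92 in controls (n = 28) of cohort 1. On the first 2 principal components, 3 libraries lay farthest from their groups, all from day 90 females of cohort 2, 1 with methylmercury and 2 controls. The identifiers in the table could not be paired with gene symbols, so neither the roles of the genes nor the defining markers of marrow could be read, and genes are named by identifier.

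The rule worked on log2(value + 1), where a value is a read count divided by the size factor of its library. It kept the 10599 genes with a mean of at least 5 on that scale, then the 8592 of them whose control means at the 4 ages spanned less than 1. Of these, 8081 had male and female means within 0.25 of each other. The methylmercury minus control difference was taken at each age and averaged over the 4 ages within each cohort. The signs in the 2 cohorts were opposite in 3909 of the 8081 genes, or 48.4%, and equal in 4172. The 100 genes with the largest smaller difference were taken. The last 2 inside had a smaller difference of 0.225, and the first 2 outside had 0.224, so the limit falls in a continuous run of values. Equal signs with both differences at least as large as in the last member were found in 72 genes that were higher and 53 that were lower with methylmercury in both cohorts. The largest smaller difference was 0.94 among the opposed genes and 1.06 among the genes of equal sign.

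**Figure D1:**
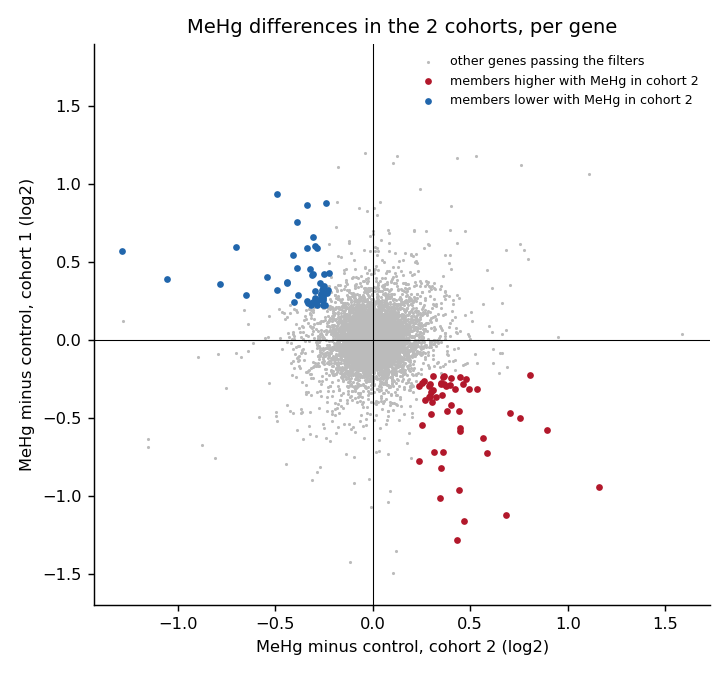
Methylmercury minus control difference on the log2(value + 1) scale, averaged over the 4 ages, with cohort 2 on the horizontal and cohort 1 on the vertical axis, for the 8081 genes that passed the level, age and sex filters. The 100 chosen genes lie in the 2 quadrants of opposite sign, 51 in one and 49 in the other, and most other genes lie close to 0 on both axes.

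Among the 51 genes that were higher with methylmercury in cohort 2, the difference there had a median of 0.36 and ran between 0.24 and 1.16 on the log2 scale. Their difference in cohort 1 had a median of -0.37 and ran between -1.29 and -0.22. The 49 genes of the other direction had a median of -0.30 in cohort 2, between -1.29 and -0.22, and a median of 0.34 in cohort 1, between 0.22 and 0.93. Most of these are small differences, since the median size over the 100 genes was 1.26-fold in cohort 2 and 1.28-fold in cohort 1. A difference of at least 1, which is a doubling or a halving, was found in 3 genes in cohort 2 and in 4 genes in cohort 1. Among the 8081 genes that passed the filters, it was found in 8 in cohort 2 and in 17 in cohort 1. Over the 8081 genes, the median size was 0.06 in cohort 2 and 0.078 in cohort 1.

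A linear model fitted with limma to the 14042 genes that passed a filter on low values took in the 16 combinations of treatment, age and cohort, with sex and plate. At an adjusted p under 0.05 it called the methylmercury difference in cohort 2 for 21 of the 100 genes, where 4.17% of all genes tested were called. In cohort 1 it called 26 of the 100, where 5.22% of all genes were called. For the difference between the cohorts it called 48 of the 100, where 2.76% of all genes were called. Of the 100, 8 were called in both cohorts and 61 in neither cohort. The matching shares over all genes are not given here, so these 2 counts cannot be read as many or few. The rule used these contrasts, so nothing is read from the counts. With title code as a random effect, 8, 17 and 27 of the 100 were called in cohort 2, in cohort 1 and between cohorts, where 1.13%, 2.13% and 0.805% of all genes were. Over the libraries with an RNA integrity number as a term, the counts were 9, 13 and 25, where 1.39%, 2.6% and 1.14% of all genes were called.

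The genes with the largest opposed differences, 2 of each direction, are given here by their values. In bulk marrow, fewer cells of a type and less RNA per cell cannot be told apart, and this holds for each of them. ENSTGUG00000026007 ran between 2.49 and 353 normalised counts in methylmercury birds of cohort 2 with a median of 119.1, and between 0.89 and 282 in their controls with a median of 66.2. In cohort 1 it ran between 0 and 256 in methylmercury birds with a median of 8.93, and between 3.33 and 589 in controls with a median of 15.8. The 4 groups overlapped widely, and each group held low libraries, with the fewest in the methylmercury birds of cohort 2. Fewer than 20 normalised counts were found in 7 of 48 methylmercury birds and 16 of 40 controls of cohort 2, and in 23 of 35 methylmercury birds and 22 of 38 controls of cohort 1. The fitted methylmercury difference was 1.19 ± 0.43 in cohort 2 and -1.09 ± 0.46 in cohort 1 on the log2 scale (SE). The SEs of the lead genes treat libraries that share a title code as independent. With title code as a random effect, the SEs of ENSTGUG00000026007 were 0.48 and 0.52. That fit used 1 correlation of 0.094 for all genes, so it does not follow the share of each gene. On the recovered reads, the difference in cohort 2 was 0.70 in edgeR and 0.72 in DESeq2.

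ENSTGUG00000028622, the second gene that was higher with methylmercury in cohort 2, had a median of 112 normalised counts in methylmercury birds there (12.5 to 377) and 78.6 in controls (13.1 to 196). In cohort 1 it had a median of 45.4 in methylmercury birds (0 to 173.03) and 82.5 in controls (5.64 to 180). All 4 groups overlapped, with the lowest median in the methylmercury birds of cohort 1. The fitted difference was 0.70 ± 0.27 in cohort 2 and -1.23 ± 0.30 in cohort 1 (SE). Over the libraries with an RNA integrity number and with that number in the fit, it was 0.41 in cohort 2 and -0.84 in cohort 1. Most of its opposition came from the methylmercury birds, whose mean level was 1.70 higher in cohort 2 than in cohort 1 on the log2 scale, while the controls differed by -0.11.

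ENSTGUG00000006467 was lower with methylmercury in cohort 2. Its median was 49.4 normalised counts in methylmercury birds of cohort 2 (12.7 to 245) and 94.5 in their controls (15.5 to 377), against 57.2 in methylmercury birds (24.2 to 376) and 40.8 in controls (13.1 to 112) of cohort 1. The 4 groups overlapped, with the highest median in the controls of cohort 2. Here the controls held the larger shift, being 1.08 higher in cohort 2 than in cohort 1 on the log2 scale, while the methylmercury birds differed by -0.22. The fitted methylmercury difference was -0.77 ± 0.21 in cohort 2 and 0.66 ± 0.23 in cohort 1 (SE).

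ENSTGUG00000004100 was the other lead gene of this direction. It had a median of 25.1 normalised counts in methylmercury birds of cohort 2 (2.76 to 109.3) and 73.9 in controls (10.5 to 428), and 57.9 in methylmercury birds (9.26 to 228) and 34.8 in controls (8.28 to 145.5) of cohort 1. The groups overlapped here too, and the methylmercury birds of cohort 2 had the lowest median. Its fitted difference was -1.21 ± 0.25 in cohort 2 and 0.49 ± 0.27 in cohort 1 (SE). The shift between cohorts was nearly equal and opposite in both treatments, at -0.91 in methylmercury birds and 0.95 in controls on the log2 scale.

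**Figure D2:**
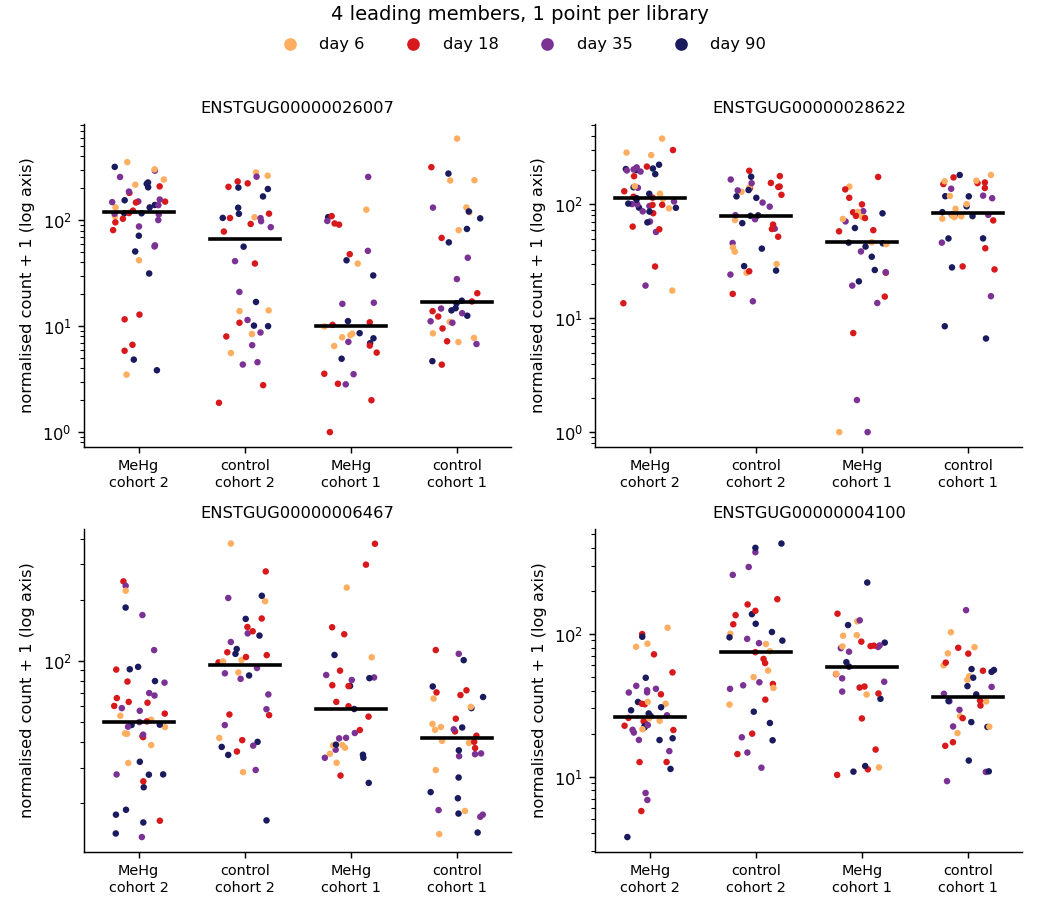
Normalised count plus 1 of the 4 lead genes on a log axis, 1 point per library coloured by day, by treatment and cohort, with the methylmercury group left of its control in each cohort and a bar at the median. The groups overlap in each of the 4 genes, and ENSTGUG00000026007 spreads over most of the axis in every group.

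A difference of opposite sign in the cohorts can come from the methylmercury birds, the controls or both differing between cohorts. For the 100 genes, the cohort 2 minus cohort 1 difference in methylmercury birds had the direction of the opposition in 93, and that in controls had the other direction in 87. Both held in 80 genes, only the methylmercury birds had the matching sign in 13, and only the controls in 7. Signed so that a positive value is the direction of the methylmercury birds' part of the opposition, the median was 0.43 in methylmercury birds and -0.33 in controls on the log2 scale, and the methylmercury birds made up a median of 54.3% of the opposition. The methylmercury shift was more than 2 times the control shift in 39 genes, and the control shift was more than 2 times the methylmercury shift in 21. In the 51 that were higher with methylmercury in cohort 2, the median cohort 2 minus cohort 1 difference was 0.52 in methylmercury birds and -0.30 in controls. In the 49 of the other direction it was -0.39 in methylmercury birds and 0.39 in controls. These shifts share all their libraries with the rule and are not tested.

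**Figure D3:**
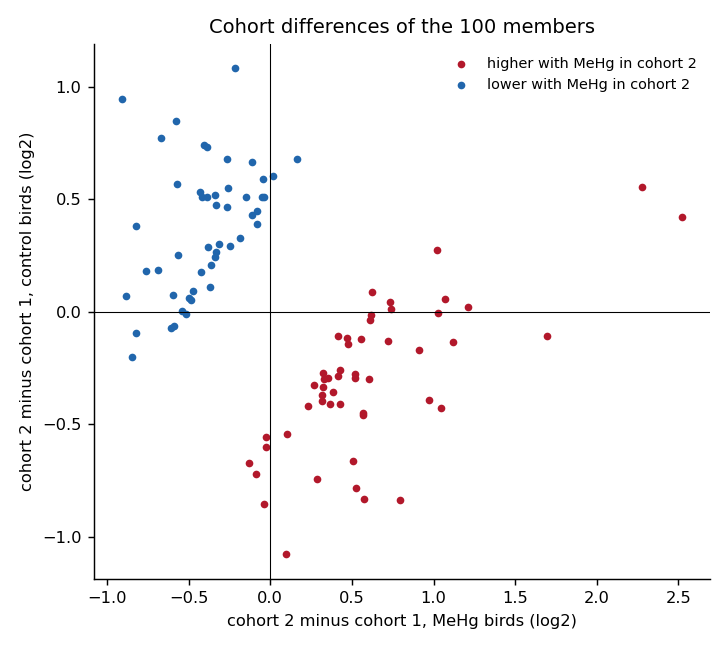
Cohort 2 minus cohort 1 difference on the log2(value + 1) scale for the 100 genes, with methylmercury birds on the horizontal and controls on the vertical axis. In 80 genes both differences have the sign that adds to the opposition and so lie in opposite directions, in 13 only the methylmercury birds and in 7 only the controls differ that way.

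The rule averaged over ages, and the age-by-age differences show how even the opposition was. In cohort 2 the sign of the average was kept by 87, 87, 95 and 93 of the 100 genes at day 6, 18, 35 and 90, with median sizes along that sign of 0.33, 0.34, 0.40 and 0.39. In cohort 1 it was kept by 97, 89, 89 and 84 genes, with medians of 0.46, 0.34, 0.39 and 0.34. All 4 ages kept the sign in 67 genes in cohort 2 and in 64 in cohort 1, and all 8 differences did in 43. The difference was opposed between cohorts at all 4 ages in 45 of the 100 genes and in 526 of the 8081 genes that passed the filters, or 6.51%. Each age enters the average that chose the genes, so these counts are a description.

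Whether the methylmercury difference varied with age is a contrast on which the genes were not ranked. The test used the mean of the differences in the 2 cohorts, so opposite changes with age in the cohorts can cancel. Whether the opposition itself varied with age was not tested. Variation with age was called in none of the 100 genes by the limma F test, where 0% of all 14042 genes were called. An unadjusted p under 0.05 was found for 7 of the 100 genes and for 812 of all genes, or 5.78%, and the lowest adjusted p among the 100 in limma was 0.857. No gene was called by edgeR, while DESeq2 called 8 genes over the table, 0 of them among the 100. The values of the lead genes at single ages were uneven, with groups of 7 to 14 libraries. ENSTGUG00000026007 had differences of 1.52, 0.49, 2.35 and 0.29 at day 6, 18, 35 and 90 in cohort 2, and of -1.85, -0.80, -0.01 and -1.11 in cohort 1. ENSTGUG00000004100 had differences of -0.45, -1.32, -1.47 and -1.90 in cohort 2, and of 0.36, 0.06, 1.21 and 0.65 in cohort 1. Its adjusted p for variation with age was 0.945 in limma on the mean of the 2 cohorts. The steps between its ages within a single cohort were not tested. ENSTGUG00000006467 was the most even of the 4 genes in cohort 1, at 0.56, 0.67, 0.69 and 0.46.

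**Figure D4:**
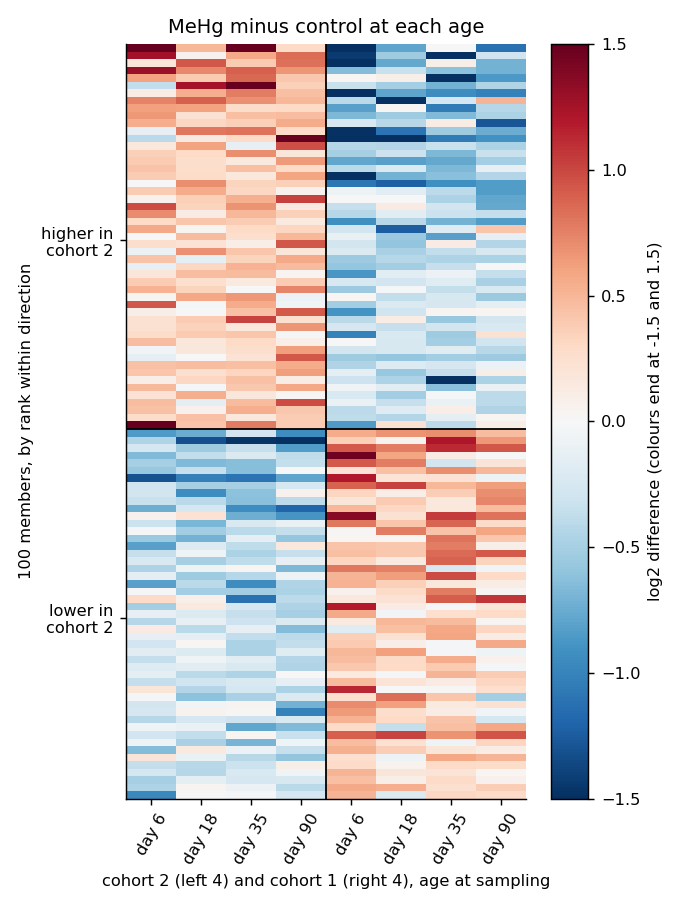
Methylmercury minus control difference on the log2(value + 1) scale for each of the 100 genes at day 6, 18, 35 and 90, with cohort 2 left of cohort 1. All 8 differences keep the sign of their cohort's average in 43 genes, and isolated reversed cells appear in the others.

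Split by sex, the difference was opposed between cohorts in 96 of the 100 genes in males and in 93 in females, where the signs were opposed in 48.4% and 48.9% of the 8081 genes. Signed by the direction in cohort 2, the median was 0.38 in males and 0.33 in females in cohort 2, and -0.36 in males and -0.35 in females in cohort 1. Single genes could be less even. As methylmercury minus control, the difference of ENSTGUG00000006467 was 0.12 in males and 1.19 in females in cohort 1, and -0.68 and -0.69 in cohort 2. The libraries of each sex are among those that chose the genes, so these counts and values are a description. Whether the methylmercury difference varied with sex was called in none of the 100 genes by limma, where 0% of all genes were called. That test took both cohorts together, so opposite changes in them can cancel, and variation of the opposition with sex was not tested. An unadjusted p under 0.05 was found for 7 of the 100 and for 466 of all genes, or 3.32%, and edgeR and DESeq2 called 0 genes. With the rule's differences taken from 1 sex and its filters from both, 57 of the 100 genes were chosen again from males and 45 from females.

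The library titles carry a code, C or Hg with a number, that belongs to a single treatment and that most often several birds share. What the code stands for is not stated. The libraries held 34 codes, 16 of methylmercury birds and 18 of controls, and 11 codes occurred in both cohorts. A limma F test of title code within treatment and cohort, with age, sex and plate in the model, called 45 of the 100 genes, where 13.3% of all genes were called. It called 28 of the 51 genes that were higher with methylmercury in cohort 2 and 17 of the 49 that were lower. Of the variance left after treatment, age, cohort, sex and plate, the code took a median of 43.6% in the 100 genes, between 25.8% and 64.6%. The median over all genes tested was 36.7%. A term with 41 degrees of freedom takes a large raw share by its size alone, and adjusted for these the medians were 18.8% and 8.78%. This test was added after the values had been seen. The differences that chose the genes contain the differences between codes, so the count is given as a description.

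ENSTGUG00000026007 was the lead gene with the largest share for code within treatment and cohort, at 58.2% of its remaining variance (39.8% adjusted for degrees of freedom). Its adjusted p was 0.000134 in limma. The ranges given next compare the cohorts within 1 code, which that share does not measure. In methylmercury birds of code Hg13, chosen after the values were seen, it ran between 56.9 and 353 normalised counts in 9 birds of cohort 2 with a median of 226. In 6 birds of cohort 1 with that code it ran between 0 and 40.9, with a median of 5.8. The 2 cohorts of Hg13 did not overlap in this gene, whereas those of code Hg11 did, with a median of 4.86 in 3 birds of cohort 2 (2.49 to 49.7) and 2.55 in 5 of cohort 1 (1.0 to 10.2). For the other lead genes the code took 41.5%, 41.3% and 41.5% of the variance in ENSTGUG00000028622, ENSTGUG00000006467 and ENSTGUG00000004100, or 15.6%, 15.5% and 15.7% adjusted for degrees of freedom. Their adjusted p-values were 0.0972, 0.101 and 0.0975 in limma, short of the threshold. ENSTGUG00000004100 ran between 5.85 and 21.1 normalised counts in 3 methylmercury birds of code Hg7 in cohort 2. In 3 birds of cohort 1 with that code it ran between 121.2 and 227.7. Code Hg7 was also chosen after the values were seen. In this gene the 2 cohorts did not overlap in code Hg11 either, but they did in Hg13 and Hg15. In Hg15 the range was 21.7 to 48.2 in 3 birds of cohort 2 and 10.6 to 81.6 in 4 of cohort 1.

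**Figure D5:**
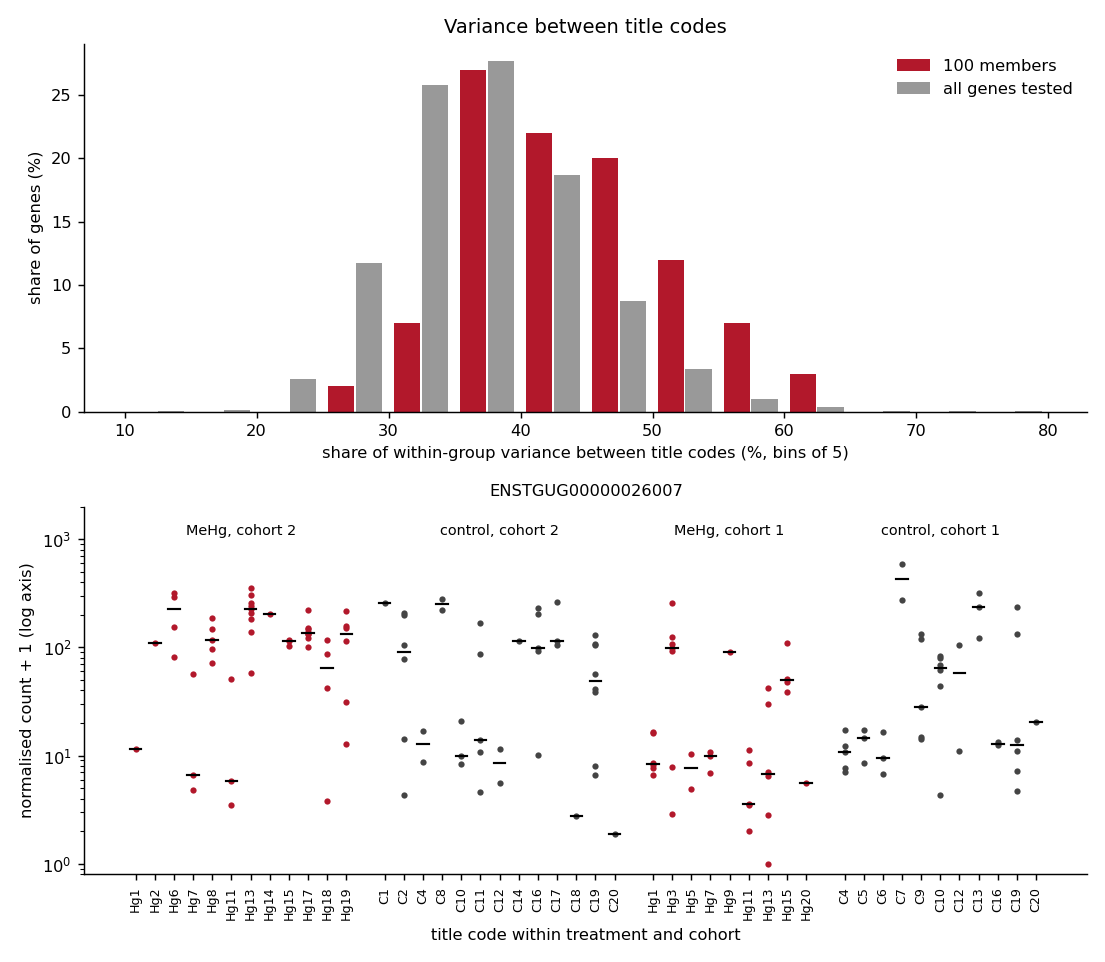
Share of the variance left after treatment, age, cohort, sex and plate that goes with title code, in the 100 genes and in all genes tested. Below it is the normalised count plus 1 of ENSTGUG00000026007 on a log axis, 1 point per library, by title code with a bar at the median. The 100 genes have a median share of 43.6% and all genes one of 36.7%, and the Hg13 birds of cohort 2 all lie above those of cohort 1.

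Comparing the cohorts within the 11 codes that both held keeps the code label fixed. Whether a code stands for the same thing in both cohorts is not stated. These codes took in 86 libraries, 43 of methylmercury birds and 43 of controls. With code as a term and no plate term, 96 of the 100 genes kept the direction of the opposition, 48 of 51 and 48 of 49. The median size along it was 0.78 on the log2 scale, against 0.68 over all libraries, and 0.19 was the median size over all genes tested. The limma fit called 24 of the 100 for the difference between cohorts, where 1.29% of all genes were called. In ENSTGUG00000026007 the within-code shift between cohorts was 2.41 in methylmercury birds and -0.06 in controls. These libraries are part of those that chose the genes, so this too is a description.

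6 codes had at least 3 birds in each cohort, between 3 and 9. Their birds are among those that chose the genes and differ in number and age, so their values are a description and the codes are not compared with each other. The cohort 2 minus cohort 1 difference had the direction of the opposition in 83 of the 100 genes in Hg13, 77 in Hg15, 71 in Hg7 and 70 in Hg11 among methylmercury codes, and in 72 in C10 and 71 in C19 among control codes. The birds of the 2 cohorts did not overlap in 8 of the 100 genes in Hg13, where 0.359% of the 8081 genes did not. They did not overlap in 15 of the 100 in Hg11, against 2.69%, in 18 in Hg15, against 7.29%, and in 27 in Hg7, against 14.2%. Among control codes they did not overlap in 10 of the 100 in C10, against 6.15%, and in 2 in C19, against 0.507%.

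Plate was called by limma in 30 of the 100 genes, 8 of the 51 that were higher with methylmercury in cohort 2 and 22 of the 49 that were lower, where 51.1% of all genes were called. Extraction batch was called in 20 of the 100, 6 of the 51 and 14 of the 49, where 34.8% of all genes were called. RIN was called in 5, 1 of the 51 and 4 of the 49, where 10.4% of all genes were called. Of the 8081 genes that passed the rule's filters, 64.8% were called for plate, 46.2% for extraction batch and 12.8% for RIN. These shares were not tested against each other. With extraction batch in place of plate, the methylmercury difference in cohort 2 was called in 16 of the 100 and in 2.81% of all genes, and that in cohort 1 in 19 of the 100 and in 3.86% of all genes. With RIN added, over the libraries that have one, the sign in cohort 1 was kept in 96 of the 100 genes.

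The rule ranked log2 differences that were not divided by the spread, which favours variable genes, so the values here are a description. The 100 genes were lower and more variable than the others that passed the filters. Their mean level ran between 5.06 and 9.70 on the log2 scale with a median of 6.52, against a median of 8.34 in the 8081 genes. Their spread between libraries, after treatment, age, cohort, sex and plate were removed, had a median SD of 0.65, between 0.24 and 2.03, against 0.29. It was above 1 in 17 of the 100, against 0.73% of the 8081. At least 1 library without a read was found for 7 of the 100 genes, against 0.371%. Set against this spread, the methylmercury difference was a median of 0.54 SD in cohort 2 and 0.56 SD in cohort 1, and exceeded 1 SD in 7 and 13 genes.

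The 100 genes showed little covariation from bird to bird. After group, age, sex and plate were removed, pairs of genes with the same direction had a median Pearson r of 0.015 over all libraries. Pairs of opposite direction had one of -0.015. An r of at least 0.5 in size was reached in 6 of 2451 pairs of the same direction and in 2 of 2499 of opposite direction, against 3.82% of pairs among the 8081 genes. The first principal component held 8.46% of their variance and the first 3 held 19.3%. For each lead gene, the gene in the table with the highest positive r was not one of the 100. That r was 0.40 for ENSTGUG00000026007, 0.59 for ENSTGUG00000028622, 0.51 for ENSTGUG00000006467 and 0.43 for ENSTGUG00000004100. In the same order, the lowest r with any gene was -0.58, -0.59, -0.41 and -0.47. Whether the genes at the lowest r were among the 100 was not examined.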

How the data were processed

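Bulk bone marrow RNA from zebra finches was enriched for mRNA on oligo(dT) beads, per the labels' protocols, and NEBNext Ultra II reagents were used for the libraries. The deposited table holds a signal per gene and library: read counts that the authors divided by a size factor for each library. For their own processing, the submitters' notes list Subread with featureCounts, and R 4.0.2 with DESeq2 1.30.1. Neither a genome build nor an annotation is named there, and the strand setting is not given, so genes that overlap or lie antisense may share reads. Multiplying by the size factors (0.574 to 1.75) gave whole reads for 100% of values within a tolerance of 1e-06. Of 169 labelled libraries, 161 were used and 8 are not analysed here. Each column was mapped to a library by its label, and 0 columns were left unmapped.

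Values were analysed as log2(value + 1) in limma 3.58.1 (R 4.3.3; trend and robust), over the 14042 genes that reached a value of 10 in 15 or more libraries, with Benjamini-Hochberg adjustment over all genes tested. The model held the 16 cells of treatment, age and cohort with sex and plate; the treatment by sex test had its own term. Counting tests on the recovered reads (edgeR 4.0.16, DESeq2 1.42.0) were alternatives. The fits were tested on simulated data. Member genes, tests and the named genes (the 2 of each direction with the largest smaller difference, since no symbols matched) were chosen with earlier results of these data known. The title code, plate, batch and RIN tests and the comparison within codes were added after the data were seen. Planned lists of marrow cell types and pathways could not be run, since 0 identifiers matched the reference symbols.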

Additional observations from a re-analysis of the deposited data

How the results depend on the processing

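The counts of the 100 genes called by limma changed most with settings that use the title code or the libraries with a RIN, and the cause was not tested. With title code as a random effect, the difference was called in 8 of the 100 genes in cohort 2 (21 in the fit as reported), in 17 in cohort 1 (26) and in 27 between cohorts (48). Over the libraries with a RIN and with RIN in the fit, the counts were 9, 13 and 25, and title code was called in 23 (45), where it was called in 6.3% of all genes (13.3%). Within the codes of both cohorts, 24 were called between cohorts. With its differences, but not its filters, limited to 1 sex, the rule chose 57 of the 100 again from males and 45 from females. No lead gene's difference changed sign under the alternatives run. Of the lead genes' fitted differences, 2 moved by over 1.5 times in the fits on both sexes. ENSTGUG00000026007 in cohort 2 was 0.70 in edgeR and 0.72 in DESeq2 (1.19 as reported). ENSTGUG00000028622 in cohort 2 was 0.41 with RIN (0.70). Split by sex, the averaged difference of ENSTGUG00000006467 in cohort 1 was 0.12 in males and 1.19 in females, where the rule gave 0.60. Over all genes tested, the share called between cohorts was 1.37% with extraction batch, 0.805% with the random effect and 1.14% with RIN, where 2.76% were called as reported. In cohort 2 it was 1.13% with the random effect and 1.39% with RIN (4.17% as reported), and in cohort 1 2.13% and 2.6% (5.22%). Without the 3 farthest libraries, 17, 26 and 50 of the 100 were called in cohort 2, in cohort 1 and between cohorts, where 3.57%, 5.87% and 2.66% of all genes were. A pseudocount of 0.5 or 5, TMM scaling or codes weighted equally kept 97, 90, 98 and 77 of the 100 genes; at 0.5, ENSTGUG00000026007 left the rule (its control means span 0.997 at a pseudocount of 1). No paired analysis was possible because the labels give no replicate numbers; title code, which they do give, was the block in the comparison within codes. At least 1 library had 0 reads in 7 of the 100 genes, ENSTGUG00000026007 and ENSTGUG00000028622 among them.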
